A study of Mus musculus with 54 samples.

Results

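Gene expression was compared at day 2 of differentiation between Δ95–99 and wildtype H2K myogenic progenitors. The comparison is the deposited table of these groups with all of its genes, 17464 of the 19653 listed anywhere in the series. It rests on 6 of the 54 samples. H2K progenitors are conditionally immortal mouse muscle cells. They carry an immortalizing gene under the H-2K promoter and were grown with γ-interferon. The wildtype group comes from a line of wildtype H2K mice, after 2 days in horse serum medium, with 3 labelled replicates. The Δ95–99 group is an EMD-/y progenitor line, which lacks emerin, transduced with a lentivirus for emerin missing residues 95 to 99, at the same time and with 3 labelled replicates. The transduced progenitors were selected and expanded in puromycin, a step the methods do not describe for wildtype progenitors, and were plated for differentiation at a higher density than wildtype. The mutant emerin, the line, its selection and its plating density therefore cannot be told apart here. The other groups of the series are EMD-/y, +EMD (EMD-/y with wildtype emerin), S54F and Q133H progenitors on the same days, and they appear only where the same genes are set side by side. The methods describe 3 technical replicates for each of 2 biological replicates.

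Emerin is a protein of the inner nuclear membrane that binds lamins, the chromatin protein BAF and several transcriptional regulators, and its loss causes X-linked Emery-Dreifuss muscular dystrophy. A muscle progenitor that differentiates first leaves the cell cycle, then switches on myogenin and MEF2, and then builds the sarcomere and the calcium-handling membranes and fuses with its neighbours. Transcripts for cell division fall during this process, and transcripts for contractile proteins come to dominate the cell.

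Each gene has 1 value per group, the authors' pooled value in normalized read counts. No value in the table is 0, and the values may have been derived from an overall mean and a moderated fold change, in which case the ratios are smaller than those of plain group means. All differences are ratios of these values with 1 added to each, on the log2 scale, Δ95–99 over wildtype. The differences have no replicate check and no test, since the pooled values give no spread. A gene is described as higher or lower when the ratio reached 2-fold and the average of both values reached 10. Of the 17464 genes, 13166 passed this minimum. In total, 1652 genes (12.5%) were at least 2-fold higher in Δ95–99 progenitors and 1114 (8.46%) at least 2-fold lower. The median difference of the 13166 genes was 0.00, and the quartiles were -0.39 and 0.48. Ratios of at least 16-fold were seen for 74 higher and 106 lower genes. The values summed to 20025539 normalized counts in wildtype and 17612563 in Δ95–99. The 10 highest genes took 8.87% and 7.63% of these sums. Dividing each value by its column sum shifted the median to 0.19 and gave 2074 higher and 876 lower genes, so that 70.3% of the called genes were higher instead of 59.7%. Fewer cells of a kind and less RNA per cell cannot be told apart in these bulk libraries.

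The targeted gene was examined first. Emd (chrX:74254674-74261563, mm10) had 1098 in wildtype and 1.12 in Δ95–99. Its log2 ratio was -9.02. This was the lowest among genes with an average of at least 100, leaving out predicted and provisionally named genes. The endogenous transcript was thus near 0 in Δ95–99, and the row shows no transcript from the construct. The species of the construct's emerin is not given in the sources used here. The +EMD progenitors, which carry the wildtype construct, had 1.55 against 1032 in wildtype. The group labels for Δ95–99 thus cannot be checked from this gene beyond its EMD-/y background. The myogenic identity of both groups was plain from the markers. Myod1 had 21405 in wildtype and 22336 in Δ95–99, the adhesion molecule Cdh15 12515 in wildtype and 11762 in Δ95–99, Des (desmin) 62233 in wildtype and 35705 in Δ95–99, and the lowest of 10 myogenic markers was Pax7, at 54.4 in wildtype.

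Genes of cell division were far higher in Δ95–99 progenitors, with the largest median of the 49 gene lists examined. Of the 36 mitosis genes, all passed the minimum, 35 were at least 2-fold higher in Δ95–99 progenitors and none was lower. Their median log2 ratio was 3.57. Mki67, which encodes the proliferation antigen Ki-67, had 75.8 in wildtype and 2323 in Δ95–99, a ratio of 30.3-fold. Espl1 (separase, which cuts cohesin at anaphase) had 13.2 in wildtype and 395 in Δ95–99. Ccnb1 (cyclin B1) had 49.5 in wildtype and 956 in Δ95–99, and Ccnb2 had 28.4 in wildtype and 470.3 in Δ95–99. Their kinase Cdk1 had 145 in wildtype and 847 in Δ95–99. The lowest of the 36 in Δ95–99 was Mybl2, at 12.9 in wildtype and 166 in Δ95–99. Ratios of this size were also seen for the spindle motors Kif11 and Kif2c, with log2 ratios of 4.24 and 4.52. They were also seen for the checkpoint kinases Bub1 (3.82), Bub1b (4.39) and Ttk (3.84), and for the Aurora kinase Aurka (2.37). The gene under 2-fold was the kinetochore gene Spc24, at 155 in wildtype and 236 in Δ95–99. Foxm1 and Mybl2, transcription factors that drive the G2/M genes, had log2 ratios of 2.93 and 3.58.

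**Figure D1:**
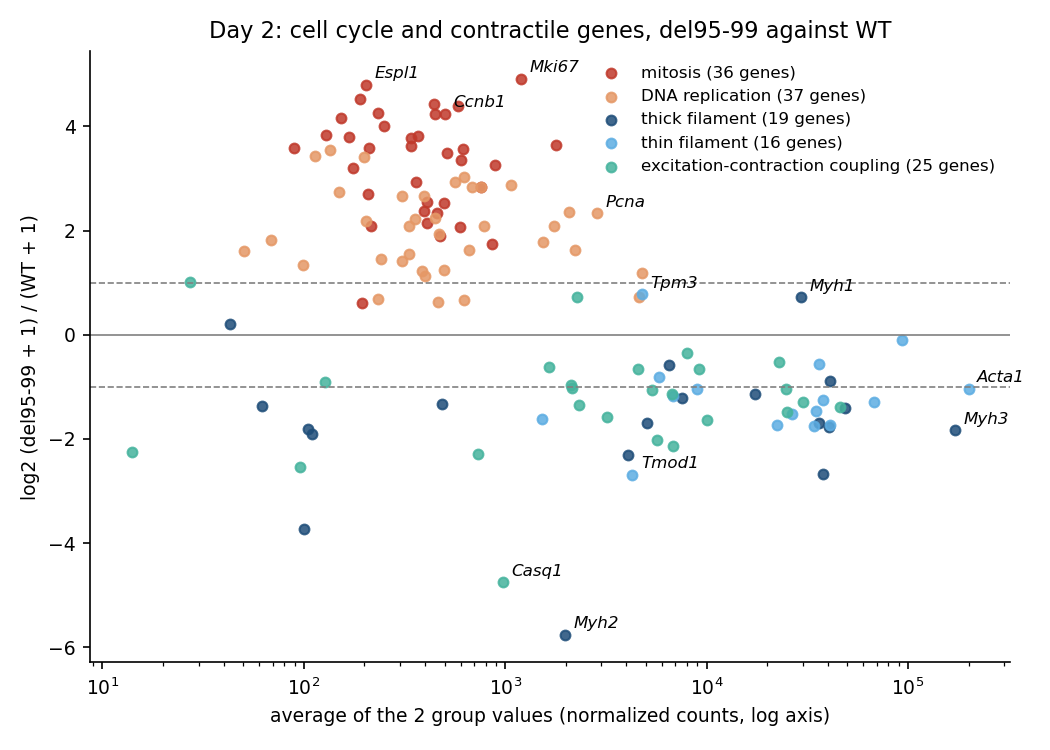
Log2 ratio of Δ95–99 (del95-99) over wildtype (WT) at day 2 against the average of both group values in normalized counts (log axis), for members of 5 gene lists that passed the minimum. Each point is a gene, the dashed lines mark 2-fold, the mitosis genes lie between 0.60 and 4.92 and most contractile genes lie below -1.

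Promoters of the mitosis genes were read because nearly the whole list was higher. In RefSeq windows of 300 bases, from 250 before to 50 after an annotated start (GRCm38.p6, the build of mm10), 30 of the 36 genes had a window. The cell cycle genes homology region (CHR, searched as TTTGAA on both strands) is bound by the MuvB complexes that repress and activate G2/M genes. It was present in 22 of these 30 windows (73.3%), against 18.1% of all 27025 windows and 11.7% of the windows of genes passing the minimum. The CCAAT box (searched as CCAAT on both strands), bound by NF-Y, was present in 22 of 30 (73.3%), against 37.9% of all windows. Of 30 replication genes with a window, 4 (13.3%) held the CHR letters and 18 (60.0%) a CCAAT box. A match in these letters is a description and not a binding site. The 250 bases before the start are shown for 3 mitosis genes that hold both, with matches in capitals:
Ccnb2, chr9:70421555-70421804, minus strand: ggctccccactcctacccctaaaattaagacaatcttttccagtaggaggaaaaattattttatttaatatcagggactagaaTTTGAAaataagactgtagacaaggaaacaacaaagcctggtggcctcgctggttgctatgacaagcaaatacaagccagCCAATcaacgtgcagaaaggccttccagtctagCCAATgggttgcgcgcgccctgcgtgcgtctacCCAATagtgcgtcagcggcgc
Kif11, chr19:37376132-37376381, plus strand: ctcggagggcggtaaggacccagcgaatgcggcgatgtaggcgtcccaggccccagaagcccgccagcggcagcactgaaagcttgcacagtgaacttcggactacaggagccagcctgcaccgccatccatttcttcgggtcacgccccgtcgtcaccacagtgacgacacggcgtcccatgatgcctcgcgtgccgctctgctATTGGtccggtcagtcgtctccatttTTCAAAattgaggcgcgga
Cdc20, chr4:118437344-118437593, minus strand: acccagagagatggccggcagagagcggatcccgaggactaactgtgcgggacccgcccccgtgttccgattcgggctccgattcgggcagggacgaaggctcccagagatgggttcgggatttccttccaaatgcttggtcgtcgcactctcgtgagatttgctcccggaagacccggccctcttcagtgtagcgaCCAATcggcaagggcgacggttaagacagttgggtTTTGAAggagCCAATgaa
In Kif11 both matches are on the opposite strand, with the CHR letters beginning 19 bases and the CCAAT box 45 bases before the start. In Cdc20, which activates the anaphase-promoting complex, the CHR letters begin 18 bases before the start, between CCAAT boxes at 53 and 8. In Ccnb2 the CCAAT boxes begin 87, 54 and 21 bases before the start and the CHR letters 167 before it.

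Genes of S phase followed. All 37 DNA replication genes passed, 33 were at least 2-fold higher and none was lower, with a median of 2.08. Pcna, the sliding clamp, had 948 in wildtype and 4787 in Δ95–99. All of the helicase genes Mcm2 to Mcm7 were higher, with log2 ratios from 1.63 for Mcm2 to 2.88 for Mcm3. Thymidine kinase Tk1 (3.55), Mcm10 (3.44) and the loading factor Cdc6 (3.41) stood highest. The replication genes under 2-fold were Pola2, Gins3, Gins4 and Rrm1, between 0.63 and 0.71. Of 25 homologous recombination genes, 14 were higher and none lower, with a median of 1.18. With an average of at least 100, 10 were higher and the median was 0.91, under 2-fold. The higher genes included the breast cancer genes Brca1 (2.44) and Brca2 (2.16). Mus81 and Rad52 lay at -0.51 and -0.38.

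The regulators of the cycle were divided. Of 22 E2F factors, cyclins and G1/S kinases, 9 were higher and 1 lower. Ccna2 (cyclin A2) had 65.6 in wildtype and 1378 in Δ95–99, Ccne2 (cyclin E2) 44.0 in wildtype and 663 in Δ95–99, and the repressive factor E2f7 14.5 in wildtype and 208 in Δ95–99. The activators E2f1 (0.87), E2f2 (-0.56) and E2f3 (0.69) were within 2-fold. E2f6, a repressor, was the lower gene at 1302 in wildtype and 608 in Δ95–99, and was within 2-fold under column-sum scaling. Among D-type cyclins, Ccnd1 was higher (688 in wildtype and 3999 in Δ95–99) and Ccnd3, which muscle cells keep as they differentiate, was at 14223 in wildtype and 8548 in Δ95–99. Per kilobase of gene length, Ccnd3 made up 93.0% of the summed D-type cyclin level in wildtype and 70.5% in Δ95–99, and Ccnd1 2.36% and 17.3%. The brakes of the cycle differed little. Of 10 CDK inhibitors and pocket proteins, 1 was higher and none lower, with a median of -0.12 that lay above 0 under column-sum scaling. Cdkn1a, the p21 inhibitor that myogenic cells induce when they leave the cycle, had 70794 in wildtype and 45161 in Δ95–99, and Rb1 had 10008 in wildtype and 7044 in Δ95–99. The pocket protein Rbl1 (p107) was the higher gene, at 231 in wildtype and 744 in Δ95–99. Of 27 p53 targets, 4 were higher and none lower, beside 12.5% higher and 8.46% lower among all genes. Perp (10.7 in wildtype and 163 in Δ95–99) and Pidd1 (1.90) were the highest.

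The list of myogenic transcription factors held both factors that set myogenic identity and antagonists of MyoD, such as the Id proteins. Of its 28 genes, 25 passed, 9 were higher and 2 lower, with a median of 0.61. Among all genes passing, 12.5% were higher and 8.46% lower, so the count of lower genes is near its share. The higher genes include the antagonists, so the count and median do not describe myogenic factors alone. Pax7, the factor of muscle stem cells, had 54.4 in wildtype and 957 in Δ95–99, a ratio of 17.3-fold. Myf5, the earliest of the myogenic regulatory factors, had 139 in wildtype and 1065 in Δ95–99. Pax3 had 110.1 in wildtype and 264 in Δ95–99. The Id proteins hold the E-protein partners of MyoD and so oppose differentiation. Id1 (197 in wildtype and 1335 in Δ95–99), Id2 (240.4 in wildtype and 1589 in Δ95–99) and Id3 (244 in wildtype and 1986 in Δ95–99) were all higher, as were the MyoD antagonists Snai2 (1.62) and Twist2 (2.76). The differentiation factors themselves were close. Myod1 had a log2 ratio of 0.06 and Myog (myogenin) of -0.32, with 51301 in wildtype and 41086 in Δ95–99. Downstream of them, Mef2c was lower at 11797 in wildtype and 2368 in Δ95–99. Myf6 (MRF4, a late factor) was lower at 56.6 in wildtype and 18.3 in Δ95–99. Mef2a (-0.19) and Mef2d (-0.85) stayed within 2-fold. The levels of MyoD and myogenin transcripts were therefore near those of wildtype while Pax7, Myf5 and the Id genes were several-fold higher.

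The contractile apparatus was lower as a group. Of 19 thick filament genes passing, 15 were at least 2-fold lower and none was higher, with a median of -1.69. Of 16 thin filament genes, 12 were lower and none higher, with a median of -1.27. Of 29 Z-disc and sarcomere assembly genes, 14 were lower and none higher, with a median of -0.96. Myh3, the embryonic myosin heavy chain, had 268005 in wildtype and 75016 in Δ95–99, and Myh8, the perinatal chain, 65124 in wildtype and 10214 in Δ95–99. Myh2, the fast IIa chain, had 3904 in wildtype and 71.1 in Δ95–99, a ratio of 54.2-fold. Myh1, the fast IIx chain, was the exception at 22297 in wildtype and 36767 in Δ95–99. These 4 genes and Myh4 (-1.33) lie together on chromosome 11 (chr11:67078273-67308634 from Myh3 to Myh8, mm10). Per kilobase of gene length, Myh3 made up 73.1% of the sarcomeric myosin heavy chain level in wildtype and 59.0% in Δ95–99. The share of Myh8 was 17.4% and 7.87%, and that of Myh1 6.04% and 28.7%. The summed level per kilobase was lower by 1.53 on the log2 scale, with 60663 and 21053 normalized counts per kilobase.

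**Figure D2:**
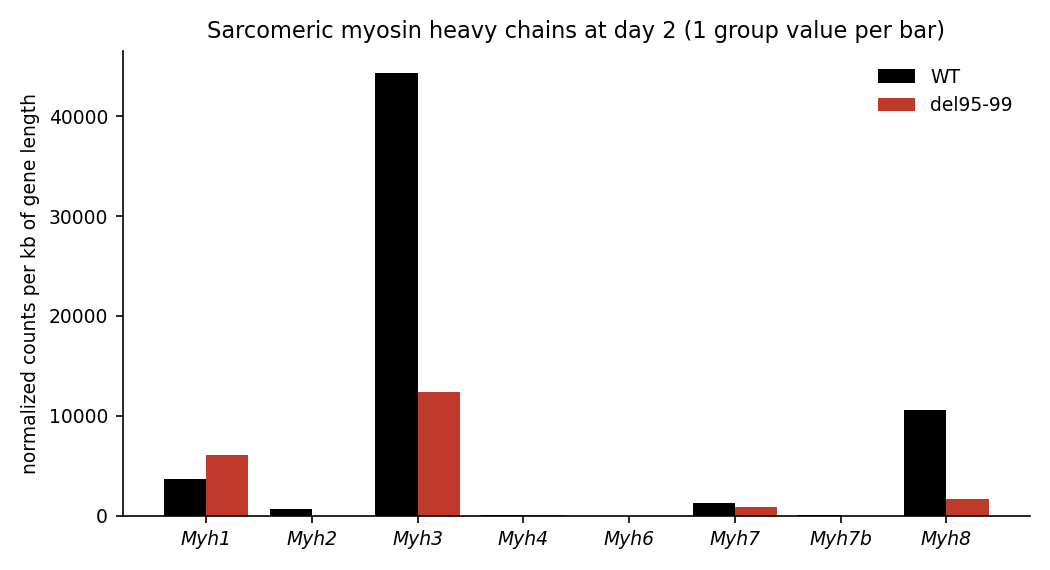
Sarcomeric myosin heavy chain genes at day 2 in normalized counts per kilobase of gene length, 1 group value per bar, wildtype (WT, black) and Δ95–99 (del95-99, red). Myh3 and Myh8 are lower in Δ95–99 and Myh1 is higher.

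The thin filament held the same pattern at smaller size. Acta1, the skeletal actin, had 269122 in wildtype and 131195 in Δ95–99, a log2 ratio of -1.04 that was -0.85 under column-sum scaling, whereas Actc1, the cardiac actin that early muscle also makes, had 97393 in wildtype and 90563 in Δ95–99. The troponins were lower, although Tnnt1 (-0.86) and Tnni2 (-0.99) were within 2-fold under column-sum scaling, where 9 thin filament genes were lower instead of 12. Tnnt1, Tnnt2, Tnnt3, Tnni1, Tnni2, Tnnc1 and Tnnc2 had log2 ratios between -1.73 and -1.05. Tmod1, which caps the pointed end of the filament, was lowest at 7424 in wildtype and 1151 in Δ95–99, and Neb (nebulin) had 52942 in wildtype and 15745 in Δ95–99. Tpm3 (0.78), which non-muscle cells also use, lay above 0. The cytoplasmic actins Actb (0.74) and Actg1 (1.05) and the non-muscle tropomyosin Tpm4 (1.44) did as well. In the Z-disc, Ankrd2, a stretch-responsive ankyrin protein, had 11715 in wildtype and 138 in Δ95–99, and Actn2 (α-actinin) had 35038 in wildtype and 4029.7 in Δ95–99. Tcap (telethonin) had 1493 in wildtype and 227 in Δ95–99 and Myoz2 had 1866 in wildtype and 504 in Δ95–99. Ttn (titin) was at 70598 in wildtype and 38611 in Δ95–99, below 2-fold. Nrap, Pdlim3 and Xirp2 lay between 0.00 and 0.75.

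Membrane and metabolic genes of the myofibre were lower too. Of 25 excitation-contraction coupling genes passing, 16 were lower and 1 higher, with a median of -1.14. The gene at this median, Cacna2d1, was at -0.95 under column-sum scaling, where Atp2a2, Cacng1 and Jph1 were also within 2-fold. Casq1, the calcium store protein of fast fibres, had 1879.9 in wildtype and 69.2 in Δ95–99, while its relative Casq2 had 37002 in wildtype and 13208 in Δ95–99. The calcium channel genes Cacna1s (-2.01) and Ryr1 (-1.64) and the pump Atp2a1 (-1.29) were lower, and the calcium buffer Pvalb was the higher gene at 17.7 in wildtype and 36.8 in Δ95–99, a log2 ratio of 1.01 that was 0.88 with a pseudocount of 5. Of 21 muscle energy genes, 14 were lower and 2 higher, with a median of -1.14. The gene at this median, Cox8b, was at -0.96 under column-sum scaling, where Aldoa, Pfkm and Cox7a1 were also within 2-fold. Cox6a2, a muscle subunit of cytochrome oxidase, had 2518 in wildtype and 202 in Δ95–99, and Slc2a4, the insulin-responsive glucose transporter, 956 in wildtype and 101 in Δ95–99. Ckm (creatine kinase) had 9006 in wildtype and 2893 in Δ95–99. Ldhb (1.52) and Pdk4 (1.08) were the higher genes. Of 11 neuromuscular synapse genes, 1 was lower (Chrng, the embryonic receptor subunit, -1.35), and the median was -0.92 with 1 ratio, that of Agrn, above 0. Of 17 dystrophin complex genes, 5 were lower and 1 higher. Dmd itself had 60.6 in wildtype and 12.8 in Δ95–99. Genes of fusion and muscle adhesion differed in both directions. Of 23, 4 were lower and 3 higher, beside 8.46% lower and 12.5% higher among all genes passing. Mymk (myomaker) had 51780.3 in wildtype and 19774 in Δ95–99, whereas Mymx (myomerger) had 1146 in wildtype and 1237 in Δ95–99. Vcam1 (1.73), Kirrel (1.63) and Dock1 (1.04) were higher.

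Promoters of the sarcomere and excitation-contraction coupling lists were read in the same way. Of 95 genes, 69 had a window. The E-box preferred by MyoD and myogenin (searched as CAGCTG, the same on both strands) was present in 27 of them (39.1%), against 16.1% of all windows. A loose MEF2 pattern (CTA, any 4 bases and TAG, the same on both strands) was present in 11 (15.9%), against 3.70%. None of the 30 mitosis or 30 replication windows held the MEF2 pattern. At 3.70% of all windows, few or no matches would be met in sets of this size. The E-box was present in 4 of 30 windows (13.3%) in each of these sets, near its share of all windows. The 250 bases before the start are shown for 3 genes that were lower in Δ95–99, the Z-disc gene Myoz2, the caveolin gene Cav3 (-2.46) and Casq1, with E-box and MEF2 letters in capitals:
Myoz2, chr3:123034988-123035237, minus strand: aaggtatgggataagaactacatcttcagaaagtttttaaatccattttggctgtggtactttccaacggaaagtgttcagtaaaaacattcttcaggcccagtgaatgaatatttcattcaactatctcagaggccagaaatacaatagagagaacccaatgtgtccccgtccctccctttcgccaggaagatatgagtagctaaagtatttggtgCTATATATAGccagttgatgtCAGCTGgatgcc
Cav3, chr6:112459255-112459504, plus strand: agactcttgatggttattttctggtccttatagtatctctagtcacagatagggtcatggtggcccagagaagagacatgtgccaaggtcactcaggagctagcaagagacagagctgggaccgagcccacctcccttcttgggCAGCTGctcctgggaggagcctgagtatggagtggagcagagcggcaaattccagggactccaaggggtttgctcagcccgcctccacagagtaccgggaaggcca
Casq1, chr1:172219896-172220145, minus strand: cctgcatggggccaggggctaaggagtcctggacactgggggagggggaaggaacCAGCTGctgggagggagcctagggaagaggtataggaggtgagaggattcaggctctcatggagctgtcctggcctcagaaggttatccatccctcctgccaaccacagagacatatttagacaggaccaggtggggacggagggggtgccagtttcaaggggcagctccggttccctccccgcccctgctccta
Myoz2 holds the MEF2 pattern 33 bases and an E-box 12 bases before the start. The E-box begins 106 bases before the start in Cav3 and 195 before it in Casq1.

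**Figure D3:**
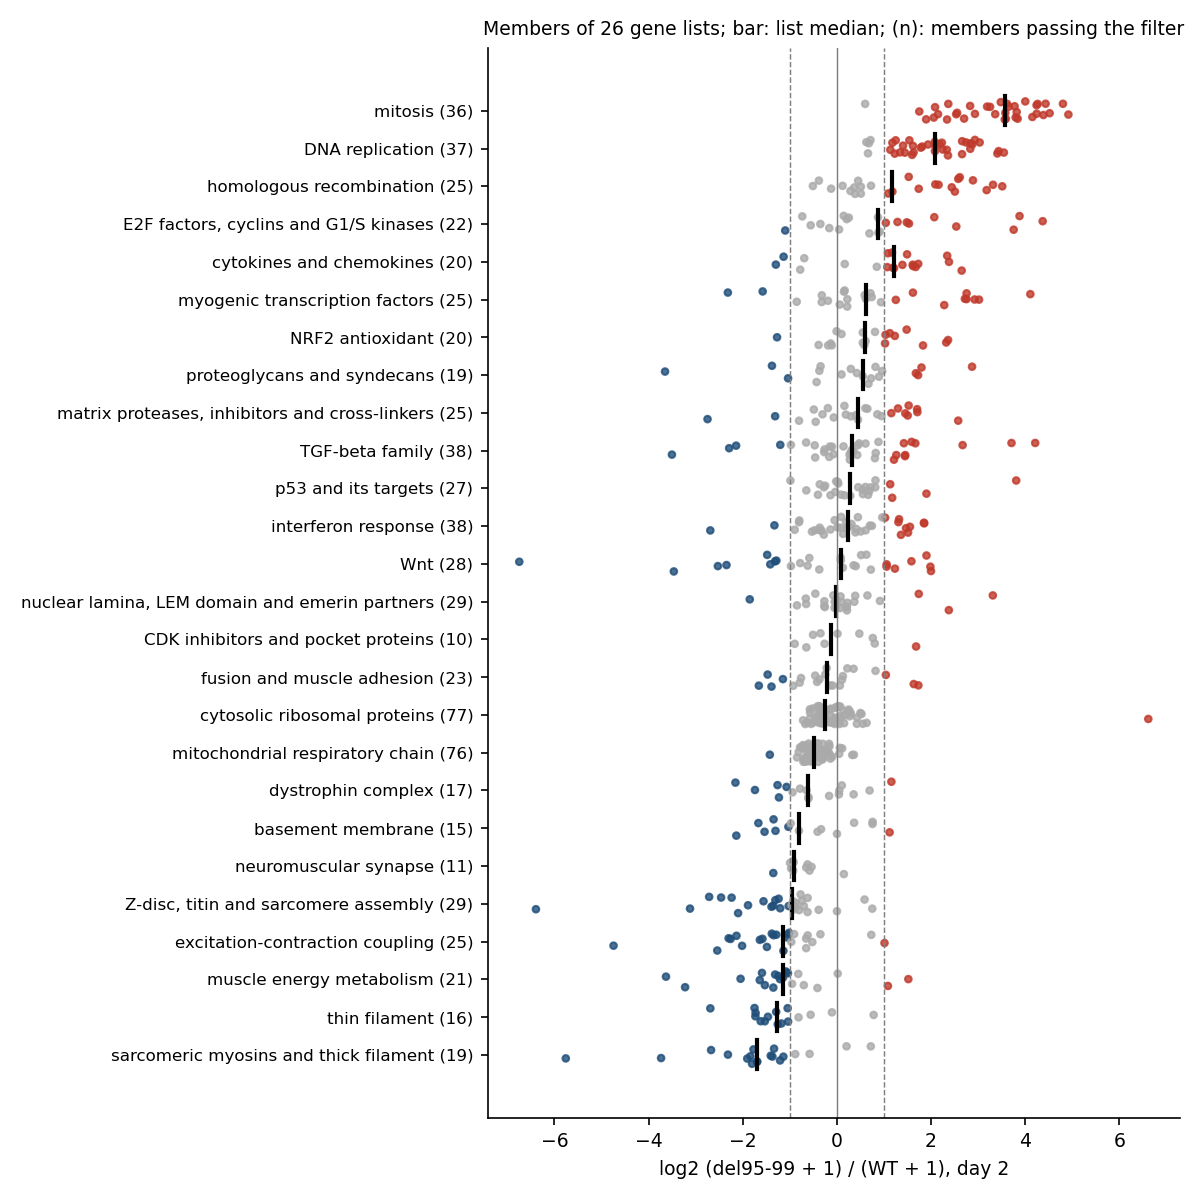
Log2 ratio of Δ95–99 (del95-99) over wildtype (WT) at day 2 for the members of 26 gene lists that passed the minimum, with their number in brackets. Red points are at least 2-fold higher, blue points at least 2-fold lower, and the black bar is the list median, from 3.57 for mitosis to -1.69 for the thick filament. The list of myogenic transcription factors also holds antagonists of MyoD, such as the Id proteins.

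Genes of the nuclear envelope, where emerin resides, were close to wildtype. Of 29 lamina, LEM domain and emerin partner genes other than Emd, 3 were higher and 1 lower, and the median was -0.01 (above 0 under column-sum scaling), beside 12.5% higher and 8.46% lower among all genes. Lmna had 19933 in wildtype and 16553 in Δ95–99, Banf1 (BAF) 1276 in wildtype and 1259 in Δ95–99, and the LEM domain genes Tmpo (0.07), Lemd2 (-0.26) and Lemd3 (0.08) were within 2-fold. Lmnb1, the B-type lamin that dividing cells carry, was higher at 292 in wildtype and 979 in Δ95–99. Syne2, a nesprin of the outer membrane, had 59.7 in wildtype and 315 in Δ95–99, and Ankle1 had 1.52 in wildtype and 24.0 in Δ95–99. Plpp7, a muscle nuclear envelope protein, was the lower gene at 1676 in wildtype and 464 in Δ95–99.

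Matrix genes differed in both directions. Their counts stand beside 12.5% higher and 8.46% lower among all genes passing. Of 10 fibrillar collagen genes passing, 3 were higher and 2 lower. Col1a1 had 4821 in wildtype and 1954 in Δ95–99 and Col3a1 15196 in wildtype and 14933 in Δ95–99. Of 17 other collagens, 3 were higher and 6 lower, with the membrane collagens Col23a1 (1000.5 in wildtype and 72.7 in Δ95–99) and Col25a1 (5595 in wildtype and 710.1 in Δ95–99) lowest. Of 15 basement membrane genes, 6 were lower and 1 higher. The laminin chain genes differed in direction. Lamb2 (-1.54) and Lamc1 (-1.03) were lower (Lamc1 at -0.84 under column-sum scaling), and Lamb1 (1.12) was higher. Of 24 matricellular genes, 7 were higher and 4 lower. Spp1 (osteopontin) had 5344 in wildtype and 24506 in Δ95–99 and Thbs1 (thrombospondin 1) 5198 in wildtype and 18784 in Δ95–99, while Postn (periostin) had 652 in wildtype and 106 in Δ95–99. Of 25 matrix protease and cross-linker genes, 8 were higher and 2 lower, among them Mmp2 (1702 in wildtype and 5551 in Δ95–99) and Loxl4 (2.58). Of 18 integrins, Itga1, Itga2 and Itgb4 were higher and Itga11 was lower. Itga7, the muscle laminin receptor, had 20186 in wildtype and 14662 in Δ95–99. Of 19 proteoglycan genes, 4 were higher and 3 lower, with the hyaluronan receptor Cd44 at 2094 in wildtype and 6707 in Δ95–99.

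Signalling genes differed in both directions. Among all genes passing the minimum, 12.5% were higher and 8.46% lower, and several list counts here are near these shares. In the TGF-β family, 10 of 38 genes were higher and 4 lower. The BMP antagonists differed in direction, with Grem1 at 45.8 in wildtype and 868 in Δ95–99 and Nog (noggin) at 528 in wildtype and 45.6 in Δ95–99. Mstn (myostatin) had 244 in wildtype and 567 in Δ95–99, and its binding proteins Fst (-1.20) and Fstl3 (-2.29) were lower. In the Wnt list, 7 of 28 were higher and 8 lower. Wnt10a had 577 in wildtype and 4.38 in Δ95–99, Wnt11 48.0 in wildtype and 3.44 in Δ95–99, and the feedback target Axin2 304 in wildtype and 59.0 in Δ95–99, while Wnt5a (1.58) and the factor Lef1 (2.00) were higher. In the Notch list, Notch2 (1.36), Hey1 (1.34), Hey2 (2.53) and Maml2 (1.06) were higher and none of 17 was lower. Of 18 insulin-like growth factor genes, 4 were higher and 3 lower. Igf1 had 375 in wildtype and 1054 in Δ95–99 and Igf2 120271 in wildtype and 73631 in Δ95–99, and the RNA-binding protein Igf2bp1 was lower at 154 in wildtype and 23.5 in Δ95–99. Among 18 ERK response genes, 5 were higher and none lower, including the phosphatases Dusp4 (2.24) and Dusp6 (1.26). Yap1 (0.12) and Wwtr1 (-0.40) were within 2-fold, and of 17 Hippo genes only Vgll2 (-1.19) and Tead4 (-1.02) were past it, Tead4 being at -0.84 under column-sum scaling. Of 22 Yap targets, 4 were higher and 1 lower, with Crim1 highest at 53.2 in wildtype and 459 in Δ95–99 and Fjx1 lowest at 119.8 in wildtype and 11.7 in Δ95–99. Of 19 SRF and smooth muscle cytoskeleton genes, 4 were higher and none lower. Of 20 hypoxia and apelin genes, 2 were higher and 1 lower.

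Cytokine and antioxidant genes were higher in part. The shares over all genes passing were 12.5% higher and 8.46% lower, and the antigen presentation and sterol counts lie near them. Of 20 cytokine and chemokine genes passing, 14 were higher and 2 lower, with a median of 1.20. Cx3cl1 (fractalkine) had 237 in wildtype and 1207 in Δ95–99, Ccl2 30.2 in wildtype and 94.8 in Δ95–99, Csf1 1969 in wildtype and 4501 in Δ95–99 and Il1rl1, the interleukin 33 receptor, 63.0 in wildtype and 401 in Δ95–99. Il33 itself was lower at 76.8 in wildtype and 34.5 in Δ95–99, with a log2 ratio of -1.13 that was -0.95 under column-sum scaling. Of 38 interferon response genes, 9 were higher and 2 lower, with Isg15 at 869.5 in wildtype and 497 in Δ95–99. Of 27 antigen presentation genes, 4 were higher and 1 lower. Of 20 NRF2 targets, 8 were higher and 1 lower. Nqo1, a quinone reductase, had 75.6 in wildtype and 393 in Δ95–99, Gsr 240.5 in wildtype and 1207 in Δ95–99, and Nfe2l2 (NRF2) 1604 in wildtype and 3288 in Δ95–99. Of 23 ATF4 and unfolded protein genes, 1 was higher and 2 lower. Fgf21 (1435 in wildtype and 218 in Δ95–99) and Asns, asparagine synthetase (3701 in wildtype and 1351 in Δ95–99), were the lower ones. Of 28 sterol and fatty acid genes, 1 was higher and 4 lower, with Dhcr7 lowest at 3646 in wildtype and 819 in Δ95–99. Of 76 respiratory chain genes, 1 (Atp5md) was at least 2-fold lower and none higher, and the median was -0.49. Of 77 cytosolic ribosomal protein genes, only Rpl26 was past 2-fold, and the median was -0.25.

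Markers of other cell types were partly near 0 and partly abundant. Their counts are set beside 12.5% higher and 8.46% lower among all genes passing. The endothelial marker Pecam1 had 1.94 in wildtype and 2.62 in Δ95–99, the macrophage marker Adgre1 0.140 in wildtype and 0.166 in Δ95–99, and the fibroblast markers Thy1 0.693 in wildtype and 0.653 in Δ95–99 and Lum 0.200 in wildtype and 0.164 in Δ95–99. Values under 1, here and for Acan below, were not told from 0, so no difference between the groups is read from them. Summed over its list, the endothelial level was 56.7 in wildtype and 87.9 in Δ95–99, with 2 of 10 genes passing. The macrophage and blood level was 304 and 150, with 3 of 11 passing, and in wildtype most of it was Itgam, at 259. Of the chondrocyte and bone list, 5 of 10 genes passed and all 5 were higher, with Sox9 at 285 in wildtype and 991 in Δ95–99 and Runx2 at 333 in wildtype and 715 in Δ95–99, while Col2a1 was at 1.82 in wildtype and 10.3 in Δ95–99 and Acan at 0.200 in wildtype and 0.164 in Δ95–99. The summed level of that list was 754 in wildtype and 2083 in Δ95–99, and its part in other differences was not tested. Of 7 fibroblast genes passing, 2 were higher and 2 lower, and the summed level was 3004 in wildtype and 3103 in Δ95–99. Of 8 pericyte and smooth muscle genes, 3 were higher and 1 lower. Their sum of 162500.4 in wildtype and 92733 in Δ95–99 was mostly Acta2 and Des, which muscle cells also express. Of 5 Schwann and neural genes, 2 were higher and 1 lower, and the sum of 62971 and 40269.8 was mostly Nes (nestin), which myogenic progenitors also express. None of 3 adipocyte genes was past 2-fold, and the sum was 8113 and 5699, mostly Car3. Of the satellite cell list, 8 of 10 passed and 4 were higher. Besides Pax7, these were Sdc4 (819 in wildtype and 2852 in Δ95–99), Hey1 and Cd34 (3.65 in wildtype and 29.3 in Δ95–99). Tenm4 was lower at 274 in wildtype and 8.86 in Δ95–99.

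Earlier days of the same lines were set beside day 2. In wildtype progenitors Mki67 went from 3977 at day 1 to 74.6 at day 2, and in Δ95–99 from 8778 to 2686. Each line was scaled in a table of its own. The median ratio of the mitosis list from day 1 to day 2 was -4.50 in wildtype and -1.78 in Δ95–99, and from day 0 to day 1 it was -0.95 and -0.09. The thick filament list went the other way, by 2.54 and then 2.03 in wildtype and by 0.19 and then 4.29 in Δ95–99. Myh3 in Δ95–99 was 3644 at day 0, 4166 at day 1 and, in the later table, 84864 at day 2. In wildtype it was 9832, 67484 and 261928. Mef2c in Δ95–99 was 320.0, 100.0 and 2665, and in wildtype 1427, 3930.3 and 11539. By these medians, the higher thick filament level appeared between days 1 and 2 in Δ95–99 and over both days in wildtype. Against wildtype of the same day, the thick filament median of Δ95–99 was -1.27 at day 0, -3.87 at day 1 and -1.69 at day 2. The mitosis median was -0.04, 0.88 and 3.57. These comparisons share groups with the one at day 2 and are not separate evidence. Whether the change between days differed was not tested.

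**Figure D4:**
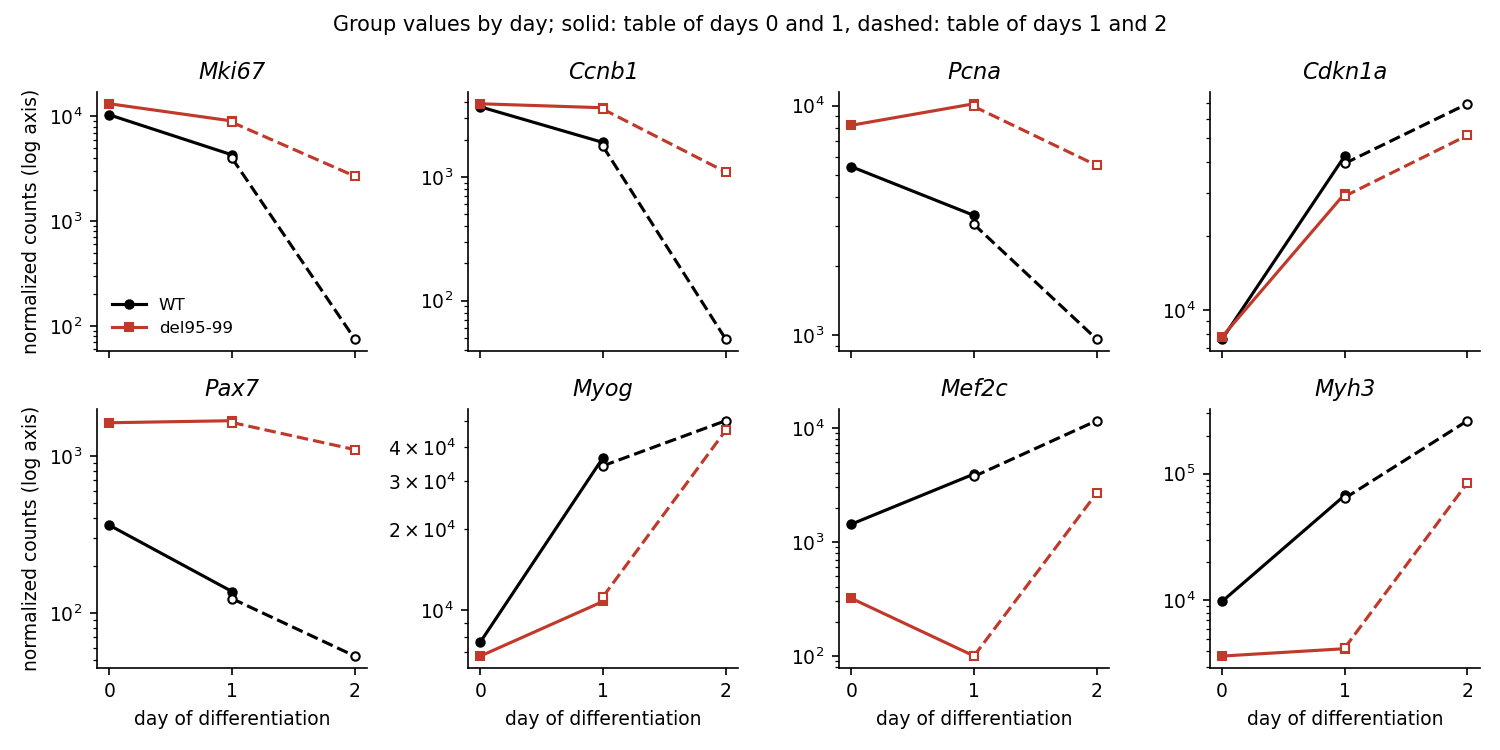
Group values of 8 genes in normalized counts (log axis) at days 0, 1 and 2 in wildtype (WT, black) and Δ95–99 (del95-99, red) progenitors. Solid lines and filled points come from the table of days 0 and 1, dashed lines and open points from the table of days 1 and 2, and Myh3 in Δ95–99 goes from 4230.0 to 84864 between days 1 and 2.

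The other lines at day 2 were set beside Δ95–99, all against the same wildtype libraries. The mitosis median was 1.16 in EMD-/y, 3.53 in +EMD, 1.48 in S54F and 2.98 in Q133H, beside 3.57 in Δ95–99. The thick filament median was 0.09 in EMD-/y, -0.93 in +EMD, -0.18 in S54F and -3.67 in Q133H, beside -1.69. The +EMD progenitors, which carry wildtype emerin, thus had a mitosis median near that of Δ95–99. The EMD-/y line without a construct had contractile medians near 0. Pax7 had log2 ratios of 2.63 in EMD-/y, 3.73 in +EMD, 2.97 in S54F and -2.55 in Q133H, beside 4.11 in Δ95–99. Differences between lines were not tested.

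**Figure D5:**
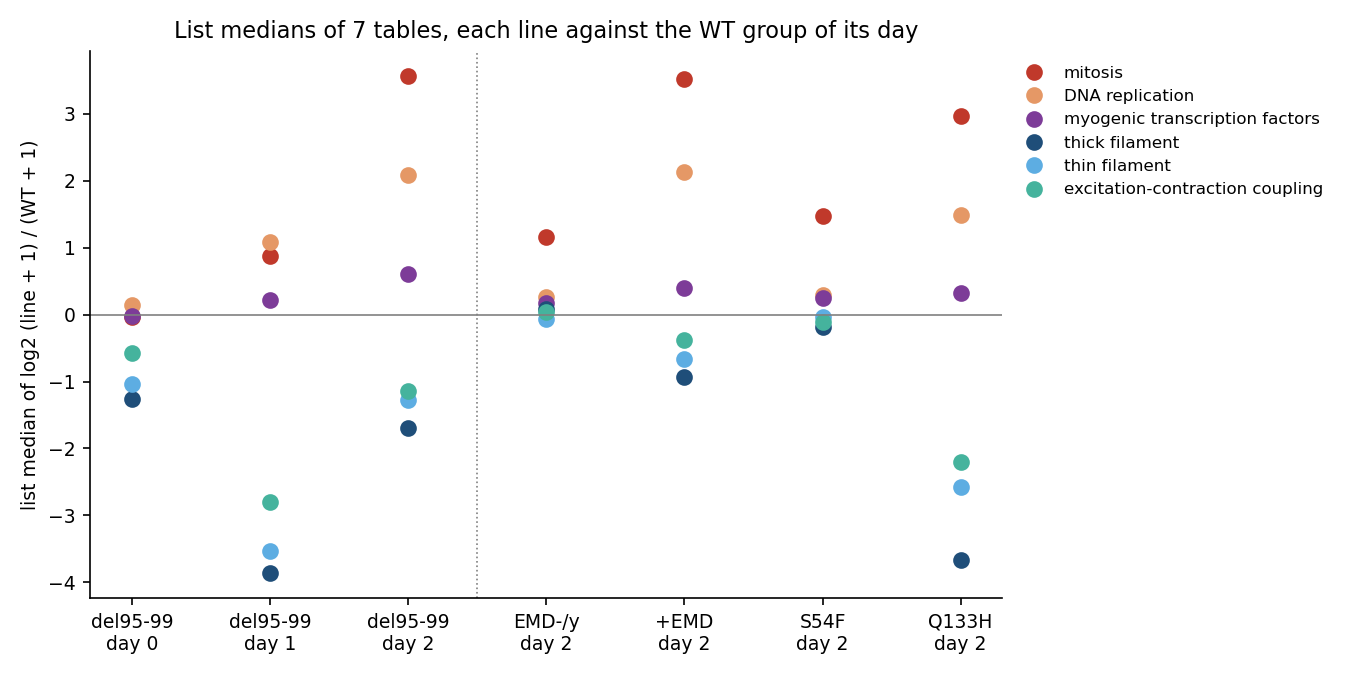
List medians of the log2 ratio of each line over wildtype (WT) of the same day, for Δ95–99 (del95-99) at days 0 to 2 and for the other 4 lines at day 2. Each point is the median of a gene list in a table, and at day 2 the mitosis medians of Δ95–99 and +EMD are 3.57 and 3.53. The myogenic transcription factor list also holds antagonists of MyoD, such as the Id proteins.

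The 12 largest differences in each direction were taken among genes with an average of at least 100. Predicted genes and genes known only by a provisional name (Gm, Rik, LOC or clone) were left out, so larger ratios may exist among those. Besides Emd, the lowest were Ifi202b, Eno1b, Wnt10a, H2-Q1, Steap1, Ankrd2, Gbp2b, Cybrd1, Cd84, Myh2 and Dpysl5. Among the highest were Rpl26, Ifi211, Kpna2, Eif2s3y, Cpne4, Lbx1, Ptprm, Mndal, Brinp1, Pclaf and Six2. Steap1, a metalloreductase, had 25077 in wildtype and 282 in Δ95–99. Cybrd1, a ferric reductase, had 258 in wildtype and 2.42 in Δ95–99, and Dpysl5, a neuronal collapsin response mediator, 693 in wildtype and 16.6 in Δ95–99. Lbx1, a homeobox factor of migrating limb muscle precursors, had 3.50 in wildtype and 234 in Δ95–99, and Six2 8.07 in wildtype and 302 in Δ95–99. Ptprm, a receptor tyrosine phosphatase, had 5.02 in wildtype and 273 in Δ95–99. Pclaf, a PCNA-binding protein, had 22.4 in wildtype and 799.9 in Δ95–99. Eif2s3y, a Y-linked translation factor subunit, had 23 in wildtype and 1352 in Δ95–99, while the Y-linked genes Ddx3y, Uty and Kdm5d had log2 ratios between -0.32 and 0.06.

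Some of these genes were also far from wildtype in the other lines. The log2 ratio of Steap1 was -6.32 in EMD-/y, -6.87 in +EMD, -6.21 in S54F and -5.92 in Q133H. For Lbx1 it was 5.74, 6.97, 5.33 and 5.23 in the same order, for Kpna2 5.22, 5.76, 5.18 and 5.84, and for Eif2s3y 6.10, 5.75, 6.11 and 5.93. Ptprm had log2 ratios of 5.77 in EMD-/y, 1.64 in +EMD, 6.08 in S54F and 5.45 in Q133H. In Δ95–99 over wildtype of the same day, Cybrd1 had ratios of -0.59 at day 0 and -2.99 at day 1, and Dpysl5 -1.22 and -4.60. Rpl26, Eno1b, Kpna2 and Ifi211 share at least 200 bases at 97% identity or more with transcripts of other genes, so their counts are uncertain. Eno1b is nearly identical to Eno1, a gene of glycolysis that had 21843 in wildtype and 22892 in Δ95–99. Other genes named here share such stretches too, among them Ccnb1, Pcna, Mcm7, Actg1, Mybl2, Ldhb, Twist2, Ccne2 and Ccnd1, and many ribosomal protein genes. Such a stretch was found for 209 of the 1146 list members and top-ranked genes with a transcript to compare. Ccna2, Tmod1, Tenm4 and Igf2 share such stretches with an overlapping or neighbouring transcript, and the sources used here do not state strand. Predicted genes without a full annotation were past 2-fold more often than the rest, 279 of 743 (37.6%) against 2487 of 12423 (20.0%).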

How the data were processed

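Poly-A libraries were sequenced and filtered by the authors' provider with SOAPnuke, and reads were mapped to mm10 with HISAT2. The deposited table holds, per gene, 1 normalized expression signal for each group, in normalized read counts, made by the authors with DESeq2 and pooled over 3 labelled replicates. How the group value was formed is not given in the sources used here. No value is 0, also where only 1 library can hold a read, so values under 1 (3 counts over a group) were not told from 0. The table also holds the authors' fold changes, p-values and direction calls, which were not used. Log2 ratios were computed here with 1 added to each value, in Python 3.11.15 with numpy 2.4.6 and pandas 2.3.3, after a check on simulated data. Genes needed an average of 10. The 49 gene lists held 1159 entries, of which 1128 were listed and 1028 passed. Members and lists were chosen with earlier results of these data known. Named genes were the 12 largest ratios in each direction with an average of at least 100, and list members. The ranking left out predicted genes and genes known only by a Gm, Rik, LOC or clone name. Size factors recovered from low values were 0.916 to 0.959 in wildtype and 1.07 to 1.10 in Δ95–99. Names, positions and promoters came from RefSeq (GRCm38.p6), with 15893 of 17464 genes matched. Near copies were sought with minimap2 2.31-r1302. Library sizes per sample were not used here. Some items that these rules would name are not reported here.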

Additional observations from a re-analysis of the deposited data

How the results depend on the processing

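The count of genes at least 2-fold higher or lower was 1652 and 1114. It was 928 and 659 with an average of at least 100, 2835 and 2242 at 1.5-fold, and 543 and 383 at 4-fold, since these settings change the genes admitted. Under pseudocounts of 0.1 and 5, no minimum, median centring, leaving out predicted genes and column-sum scaling, the counts stayed within 1.5 times. Column-sum scaling gave 2074 and 876. With an average of at least 100, the median of the macrophage and blood markers was -2.76 instead of 0.74. Only 3 genes of that list passed the main minimum, and -2.76 is the ratio of the lowest of them. Under column-sum scaling, Acta1 had a log2 ratio of -0.85, under 2-fold. Of 38 named genes checked, 37 stayed on the same side of the 2-fold limit. No paired analysis was possible because the columns hold 1 value per group, and for the same reason no replicate could be left out.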

Other observations

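Genes of the interferon-inducible Ifi200 cluster on chromosome 1, whose proteins sense DNA, differed in both directions. They were looked up after Ifi202b, Ifi211 and Mndal appeared among the largest ratios, so they were chosen after their values were seen. Ifi202b had 803 in wildtype and 2.02 in Δ95–99, and Ifi203 had 649 and 201. Ifi209 had 16.5 and 1.70. In the other direction, Ifi211 had 8.89 and 855, Mndal 5.75 and 278, Ifi207 28.7 and 154, and Ifi205 1.66 and 38. The other members examined were Ifi204 (1626 and 826), Aim2 (19.5 and 7.26) and Ifi213 (1.78 and 0.975). Ifi211 shares near-identical stretches with Ifi204 and Mndal, so reads may be split among them. In the other lines, the log2 ratio of Ifi202b to the same wildtype libraries was -7.56 in EMD-/y, -8.19 in +EMD, -7.84 in S54F and -7.76 in Q133H.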
